A study of Mus musculus with 8 samples.

Results

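The receptor subunit gp130, the Janus kinases that dock on it, the transcription factor STAT3 and a set of genes that STAT3 signalling is known to switch on were followed in mature mouse oligodendrocytes with and without microglia. The set was a fixed list of 10 genes (Il6st, Osmr, Jak1, Jak2, Tyk2, Stat3, Socs3, Cebpd, Cebpb and Bcl3), and all 10 were among the 18833 genes of the expression matrix. Cells came from 2 female Fire+/+ mice (wild type, mice 1 and 4) and 2 female FireΔ/Δ mice (mice 3 and 6). FireΔ/Δ mice lack FIRE, an intronic enhancer of Csf1r, on both alleles. They have no microglia but keep other macrophages of the brain, and all their cells carry the deletion. Mice 1 and 3 were aged 1 month and 18 days, and mice 4 and 6 were aged 1 month and 16 days. Each mouse gave a hippocampus library and a library of the rest of the left hemisphere, labelled cortex, which made 8 libraries, 4 per genotype.

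Interleukin-6, oncostatin M, leukaemia inhibitory factor and ciliary neurotrophic factor signal through gp130, which is encoded by Il6st. A ligand-bound receptor brings Janus kinases together, the kinases phosphorylate STAT3, and STAT3 enters the nucleus and raises transcription of its targets. Among these are Socs3, whose product shuts the receptor down, and the acute-phase transcription factors encoded by Cebpd and Cebpb. Bcl3 encodes an atypical IκB protein that binds NF-κB p50 and p52 in the nucleus. In the brain, the pathway is best known from reactive astrocytes and from the response to injury.

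The study grouped the oligodendrocytes into 4 transcriptional states, Oligo1 to Oligo4, and its cell labels were used as deposited. Oligo1 held 859 of 2784 and 147 of 1074 cells in hippocampus and cortex of mouse 3, and 448 of 1934 and 98 of 904 cells in mouse 6. In Fire+/+ mice, 6 cells were Oligo1, all from the hippocampus of mouse 4, so values within Oligo1 were described in FireΔ/Δ mice. Libraries held 904 to 2784 cells, and their median depth was 9377 to 13725.5 unique molecular identifiers (UMIs, each counting a captured RNA molecule) per cell. Levels are given in CPM, the gene's UMIs as a share of all UMIs of the same cells on the counts-per-million scale, with no correction for length, since 3′ libraries count ends. Csf1r was at 6.17 and 8.30 CPM in Fire+/+ mice 1 and 4 and at 0.0878 and 0.0701 in FireΔ/Δ mice 3 and 6. The myelin genes of mature oligodendrocytes were abundant in all 4 mice, with Mbp at 4829 to 5329 CPM, Mag at 2696 to 3390 and Mog at 1873 to 1928. Of 12560 cell barcodes, 21 occurred in more than 1 library.

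Regulatory sequence is shown for Socs3, Bcl3 and Stat3, a target, a nuclear factor and the pathway's transcription factor, which were all higher in FireΔ/Δ libraries. The sequences are RefSeq promoters of GRCm38.p6 on the minus strand. They run from 250 bases before the RefSeq start to the first GENCODE exon base met from there. Capitals mark TTCNNNGAA, the core letters of a STAT site, searched on both strands, on which it reads the same. The sequences lie at chr11:117969452-117969616 for Socs3, chr7:19822771-19823005 for Bcl3 and chr11:100939541-100939790 for Stat3. That of Socs3 lies inside the annotated span of the gene, 117966079 to 117970047.
Socs3: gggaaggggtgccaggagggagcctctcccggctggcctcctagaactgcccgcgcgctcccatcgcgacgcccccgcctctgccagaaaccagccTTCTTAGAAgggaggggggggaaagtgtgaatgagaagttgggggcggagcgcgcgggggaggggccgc
Bcl3: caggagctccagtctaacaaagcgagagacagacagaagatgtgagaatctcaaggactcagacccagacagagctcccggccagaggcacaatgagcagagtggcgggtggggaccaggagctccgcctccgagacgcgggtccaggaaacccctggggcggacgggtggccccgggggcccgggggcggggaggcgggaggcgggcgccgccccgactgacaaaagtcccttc
Stat3: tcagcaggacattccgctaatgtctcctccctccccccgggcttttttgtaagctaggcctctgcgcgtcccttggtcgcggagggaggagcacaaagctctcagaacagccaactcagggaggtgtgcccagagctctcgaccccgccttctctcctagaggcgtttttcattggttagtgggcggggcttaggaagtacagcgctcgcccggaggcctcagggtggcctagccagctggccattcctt
The Socs3 sequence held 1 match, TTCTTAGAA, which began at base -154 from the RefSeq start. No match was found in the 250 bases before the start of the 8 other members with an entry, which is a statement on these letters and this window alone. Of 27025 promoters of this length, 7.18% held a match. TTGCNNAA, the core letters of a C/EBP site, searched on both strands, was in 9.55% of promoters and in none of these 9. Cebpd had no entry.

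The receptor subunits came first, to ask whether the oligodendrocytes of FireΔ/Δ mice carried more of the receptor. Il6st (chromosome 13, 112464070 to 112510086, GRCm38) was at 37.1, 40.5, 53.7 and 52.6 CPM in the hippocampus and cortex of Fire+/+ mouse 1 and then of mouse 4. In FireΔ/Δ mice it was at 43.2 and 41.5 in mouse 3 and at 59.6 and 53.5 in mouse 6. The genotypes overlapped, whereas mice 4 and 6 lay above mice 1 and 3 in every library. Mice of an age were processed in the same batches, so age and batch cannot be told apart. FireΔ/Δ mice averaged 49.5 ± 10.1 CPM, 1.08 times the Fire+/+ average of 46.0 ± 10.1 (SD, n = 2 mice each). Osmr, the partner of gp130 in the oncostatin M receptor (chromosome 15, 6813577 to 6874969), had 22 UMIs in 6696 FireΔ/Δ cells and 4 in 5885 Fire+/+ cells, too few for a comparison of levels. Of the 22, 16 were in Oligo1.

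The 3 kinases that pair with gp130 overlapped between genotypes. Jak1 (chromosome 4, 101152367 to 101265282) was at 51.7 to 59.3 CPM in Fire+/+ libraries and 50.9 to 66.9 in FireΔ/Δ libraries. Jak2 (chromosome 19, 29251828 to 29313080) spanned 40.3 to 57.4 and 38.1 to 57.6, and its libraries, like those of Il6st, separated mice 4 and 6 from mice 1 and 3 rather than the genotypes. Tyk2 (chromosome 9, 21104068 to 21131243) spanned 6.40 to 8.30 and 7.53 to 10.5. The FireΔ/Δ to Fire+/+ ratios of the means were 1.08, 1.01 and 1.21. Within each of the 4 batches, which held 1 library of each genotype from the same tissue, Tyk2 was 1.12 to 1.32 times as high in the FireΔ/Δ library.

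**Figure D1:**
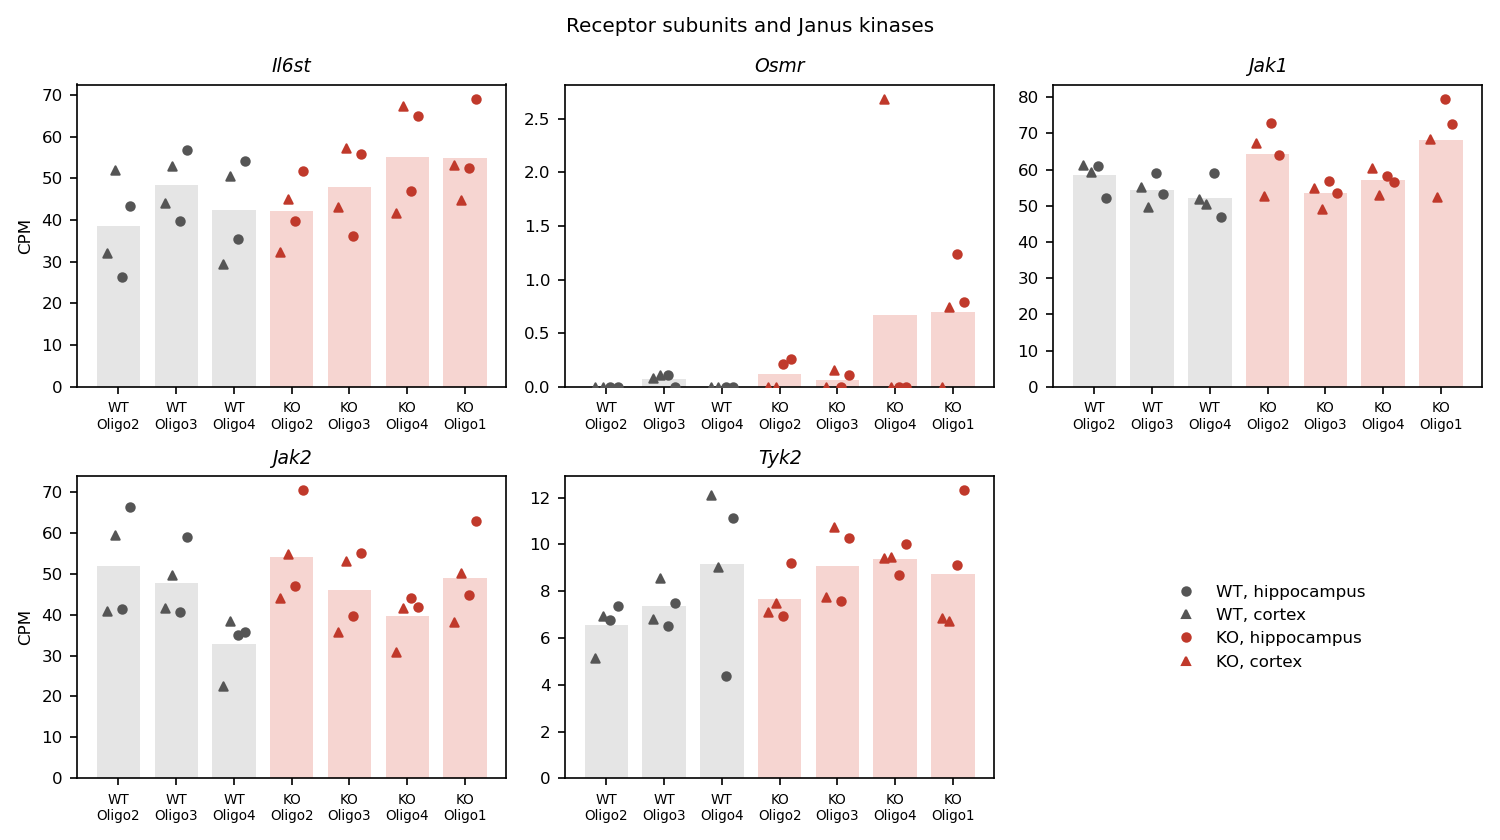
Receptor subunits and Janus kinases in CPM (linear axis), by genotype and cluster. Points are libraries (circles hippocampus, triangles cortex, grey Fire+/+ and labelled WT, red FireΔ/Δ and labelled KO) and bars their means, with the 4 FireΔ/Δ libraries alone for Oligo1. Il6st, Jak1, Jak2 and Tyk2 overlap between genotypes in each of Oligo2 to Oligo4, and Osmr does not pass 2.69.

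Stat3 (chromosome 11, 100885098 to 100939540) was higher in all FireΔ/Δ libraries. In Fire+/+ mice it was at 46.2 and 48.8 CPM in hippocampus and cortex of mouse 1 and at 62.4 and 57.6 in mouse 4. In FireΔ/Δ mice it was at 103 and 72.6 in mouse 3 and at 110 and 86.8 in mouse 6. The lowest FireΔ/Δ library lay above the highest Fire+/+ library. The means of 93.0 ± 7.47 and 53.8 ± 8.82 CPM (SD, n = 2 mice each) made a ratio of 1.73, and within batches the ratio was 2.23 and 1.76 in hippocampus and 1.49 and 1.51 in cortex. Outside Oligo1 the libraries still did not overlap, at 64.1 to 90.5 against 46.2 to 62.1, and the ratio was 1.45.

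Socs3 (chromosome 11, 117966079 to 117970047), the feedback inhibitor, was almost undetected in Fire+/+ oligodendrocytes. All 4 Fire+/+ libraries together held 14 Socs3 UMIs in 5885 cells, at 0.0859 and 0.118 CPM in mouse 1 and 0.359 and 0.392 in mouse 4. FireΔ/Δ libraries held 1259 UMIs, with 28.3 and 11.7 CPM in hippocampus and cortex of mouse 3 and 11.4 and 4.49 in mouse 6. The FireΔ/Δ mean was 14.0 ± 8.53 CPM (SD, n = 2 mice), 58.6 times that of Fire+/+ mice, and mouse 3 was higher than mouse 6 in both tissues. Outside Oligo1 the values were 5.65 and 3.07 in mouse 3 and 3.43 and 1.78 in mouse 6, still above every Fire+/+ library.

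Cebpd (chromosome 16, 15887286 to 15891031) encodes C/EBPδ, and its libraries did not overlap between genotypes. It was at 5.28, 3.55, 5.52 and 3.45 CPM in hippocampus and cortex of Fire+/+ mouse 1 and then of mouse 4. The FireΔ/Δ values were 55.4 and 22.2 in mouse 3 and 36.9 and 23.0 in mouse 6. The ratio of the means, 34.4 ± 6.26 against 4.45 ± 0.0469 (SD, n = 2 mice each), was 7.72, and it lay between 6.25 and 10.5 within batches. Outside Oligo1, the FireΔ/Δ libraries were at 19.3 and 10.0 in mouse 3 and 18.0 and 16.0 in mouse 6, a ratio of 3.59 over Fire+/+.

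Bcl3 (chromosome 7, 19808462 to 19822770) was also almost undetected in Fire+/+ mice. In all, 5 Bcl3 UMIs were found in Fire+/+ cells, against 581 in FireΔ/Δ cells, of which 482 were in Oligo1. Hippocampus and cortex were at 14.0 and 4.61 CPM in FireΔ/Δ mouse 3 and at 4.91 and 1.498 in mouse 6, and no Fire+/+ library passed 0.129. The mean of 6.26 ± 4.32 (SD, n = 2 mice) was 93.9 times the Fire+/+ mean, a ratio that rests on those 5 UMIs. Cebpb (chromosome 2, 167688915 to 167690418) was rarer, with 156 UMIs in FireΔ/Δ and 17 in Fire+/+ cells. Of the 156, 110 came from the hippocampus of mouse 3, and the cortex of mouse 3 held 1, fewer than the 4 of the cortex of mouse 1 in the same batch, so Cebpb overlapped between genotypes.

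Across libraries, Stat3, Socs3, Cebpd and Bcl3 were higher in every FireΔ/Δ than in every Fire+/+ library. Osmr also lay higher, at 0.136 to 0.431 against 0 to 0.0859 CPM, values that rest on too few UMIs to be read. Among 15902 genes with at least 10 UMIs, 2.87% did so. Outside Oligo1, Stat3, Socs3, Cebpd and Bcl3 did so, against 1.69% of genes. Bcl3 reached the 10 UMIs through FireΔ/Δ cells alone, with 5 in Fire+/+ cells, so its place in either count is no finding.

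**Figure D2:**
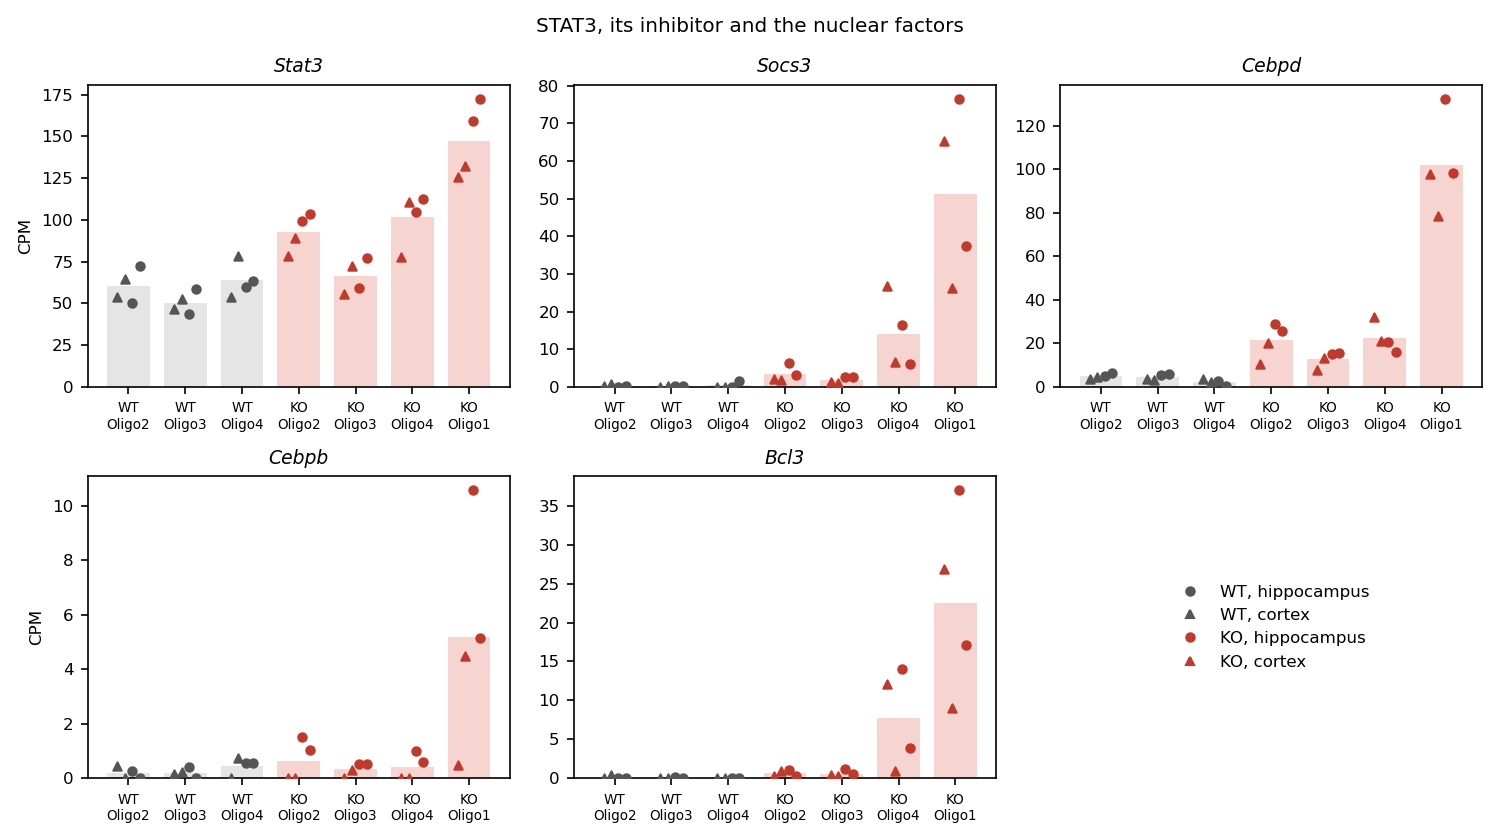
Stat3, Socs3, Cebpd, Cebpb and Bcl3 in CPM (linear axis), by genotype and cluster, with points, colours and bars as in the plot of receptors and kinases. All 4 Oligo1 values of Cebpd (78.7 to 132) and of Stat3 (126 to 173) lie above those of the other FireΔ/Δ clusters. In Oligo2 to Oligo4, Cebpd lies higher in FireΔ/Δ than in Fire+/+ libraries, while Stat3 overlaps in Oligo3 and Oligo4.

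The genotypes were compared with limma on the mean log2 value of each mouse, with Benjamini-Hochberg adjustment over the genes detected in 5% of cells or more. Il6st, Jak1, Jak2, Tyk2, Stat3 and Cebpd passed that filter. No member was called, and limma called 0 of 9257 genes (0%), with 209 at an unadjusted p under 0.05. Cebpd differed by 0.18 ± 0.016 (FireΔ/Δ minus Fire+/+, log2 scale, SE; limma adjusted p = 0.767). Stat3 differed by 0.22 ± 0.042 (limma adjusted p = 1.00). Il6st differed by 0.022 ± 0.055, Jak1 by 0.028 ± 0.028, Jak2 by 0.0045 ± 0.056 and Tyk2 by 0.013 ± 0.013. On this scale a gene that most cells lack has a small difference even where its ratio is large. With 2 mice against 2, an exact permutation test of a single gene cannot give a p under 0.333.

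Summed UMIs per mouse gave another answer for the most changed members. With the same filter, edgeR's quasi-likelihood test called 8 of 9257 genes (0.0864%), and Cebpd rose (edgeR log2 fold change 3.05, adjusted p = 0.0124). Without the filter, all 10 members were tested, and 78 of 15902 genes (0.491%) were called. Of the 10, 3 rose, namely Cebpd (adjusted p = 0.00301), Socs3 (adjusted p = 0.0152) and Bcl3 (adjusted p = 0.0180), by edgeR. This fit takes genes with at least 10 UMIs, which Bcl3 reached through FireΔ/Δ cells alone (5 UMIs in Fire+/+ cells). The edgeR adjusted p was 0.112 for Stat3, 0.0936 for Cebpb and 0.635 for Osmr. In hippocampus alone, which leaves out the cortex batch that the study describes as of poorer quality, the edgeR adjusted p was 0.00305 for Cebpd, 0.00774 for Socs3 and 0.0181 for Bcl3. There Socs3 too reached 10 UMIs through FireΔ/Δ cells alone. Stat3 was called by DESeq2 (adjusted p = 0.00116) but by neither limma nor edgeR on all mice.

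Whether the difference reached cells outside Oligo1 was asked next. The clusters were made from these expression values, and leaving out Oligo1 took 1552 cells from FireΔ/Δ and 6 from Fire+/+ mice. The p-values outside Oligo1 and within Oligo2 to Oligo4 depend on that boundary. Outside Oligo1, limma called 0 of 9232 genes (0%), with 133 at an unadjusted p under 0.05. edgeR called 3 of 9232 genes (0.0325%) with the filter, among them Cebpd, which rose (log2 fold change 1.86, adjusted p = 0.0318). Without the filter it called 29 of 15664 (0.185%), of which 2 were members, Cebpd (adjusted p = 0.00491) and Socs3 (adjusted p = 0.0398). In hippocampus alone the edgeR adjusted p was 0.0219 for Cebpd and 0.0711 for Socs3, whose edgeR log2 fold change was 4.49 in hippocampus and 4.07 over both tissues. Bcl3 was at 3.22, 1.02, 1.16 and 0.562 CPM in hippocampus and cortex of mouse 3 and then of mouse 6 (edgeR adjusted p = 0.0915 without the filter). Within batches, Cebpd outside Oligo1 was 2.82 to 4.65 times and Stat3 1.31 to 1.65 times as high in the FireΔ/Δ library, while Il6st lay between 0.979 and 1.06 times.

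**Figure D3:**
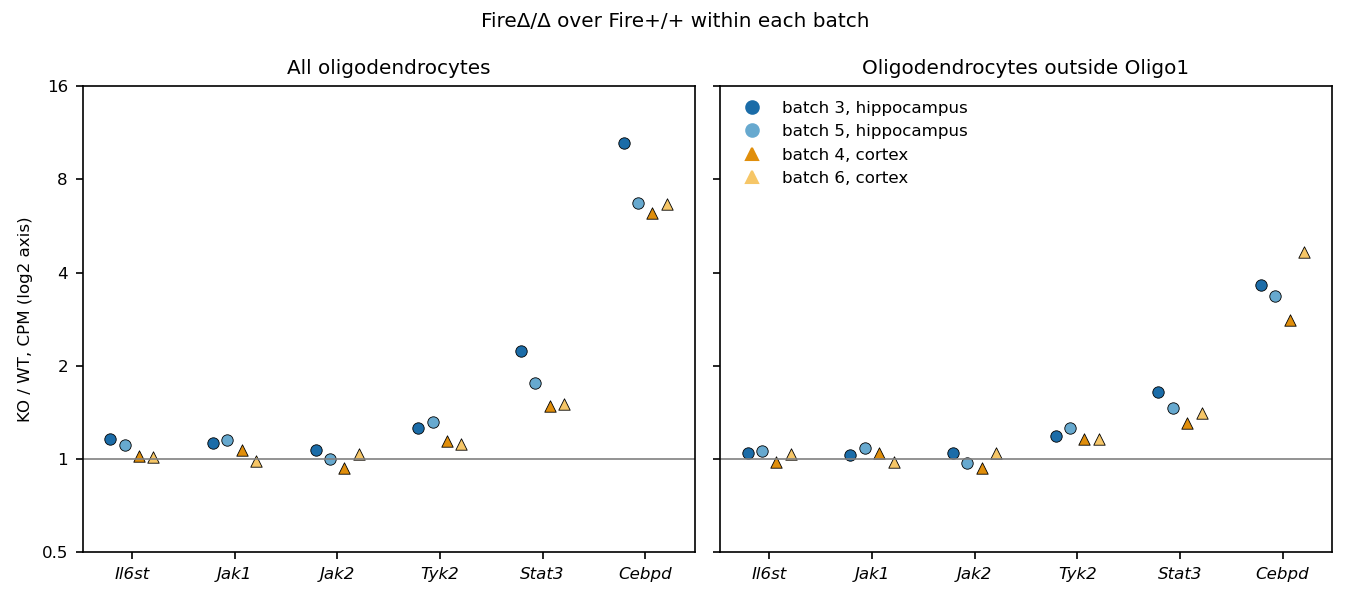
Ratio of FireΔ/Δ to Fire+/+ CPM within each of the 4 batches (log2 axis), for the 6 members with enough UMIs, over all cells and outside Oligo1. Cebpd and Stat3 lie above 1 in every batch, and Tyk2 lies between 1.12 and 1.32 over all cells.

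Each remaining cluster was then taken alone. In Oligo2, limma called 0 of 9292 genes (0%; 139 at an unadjusted p under 0.05), and edgeR called 4 (0.043%) with the filter and 16 of 13145 (0.122%) without it. Cebpd rose there to 21.4 ± 2.15 against 4.84 ± 0.814 CPM (SD, n = 2 mice each), an edgeR adjusted p of 0.00958. In Oligo3, limma called 0 of 9135 genes (0%; 103 at an unadjusted p under 0.05), and edgeR called 3 (0.0328%) and 13 of 15026 (0.0865%). Cebpd stood at 12.8 ± 2.14 against 4.62 ± 0.0360 CPM (SD, n = 2 mice each), with an edgeR adjusted p of 0.138 with the filter and 0.0495 without it. Stat3 was 1.54 times as high in Oligo2 and 1.31 times in Oligo3 of FireΔ/Δ mice.

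In FireΔ/Δ mice, mean Socs3 was 14.0 CPM in Oligo4, against 3.34 in Oligo2 and 1.87 in Oligo3, and mean Bcl3 was 7.75 against 0.635 and 0.615. There limma called 0 of 9381 genes (0%; 282 at an unadjusted p under 0.05), and edgeR called 25 (0.266%) with the filter and 36 of 11935 (0.302%) without it. Socs3 was at 16.3 and 26.9 CPM in hippocampus and cortex of FireΔ/Δ mouse 3 and at 6.06 and 6.64 in mouse 6, while Fire+/+ Oligo4 cells held 3 UMIs, all in 1 library. Bcl3 was at 14.0 and 12.1 in mouse 3 and at 3.94 and 0.948 in mouse 6, and Fire+/+ Oligo4 cells held 0 UMIs. Cebpd averaged 22.5 ± 5.66 CPM in FireΔ/Δ and 2.25 ± 1.19 in Fire+/+ Oligo4 cells (SD, n = 2 mice each). Its ratio of 9.97 rests on 11 Fire+/+ UMIs. Stat3 was 1.59 times as high in FireΔ/Δ Oligo4, though its libraries overlapped. By edgeR without the filter, Cebpd (adjusted p = 0.000642), Socs3 (adjusted p = 0.0202) and Bcl3 (adjusted p = 0.0372) rose. That fit takes genes with at least 10 UMIs, which Socs3 and Bcl3 reached in Oligo4 through FireΔ/Δ cells alone. The p-values of these 2 genes are therefore no support for a difference. In hippocampus alone the adjusted p of Cebpd was 0.0243, of Socs3 0.332 and of Bcl3 0.249. Il6st and Jak2 overlapped between genotypes in Oligo4, and neither was called. Within batches, however, Il6st was 1.20 to 1.42 times and Jak2 1.09 to 1.37 times as high in the FireΔ/Δ library. Jak1 lay between 0.990 and 1.21 times and Tyk2 between 0.776 and 1.99 times.

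Markers of other cells moved in the same Oligo4 cells. All 4 haemoglobin genes of the erythrocyte list rose in FireΔ/Δ Oligo4 by edgeR without the filter. Their sum was 2247 and 30.9 CPM in hippocampus and cortex of mouse 3, 896 and 82.5 in mouse 6, and 15.8 to 29.5 in Fire+/+ libraries. FireΔ/Δ Oligo4 cells with no Hbb-bs UMI had Bcl3 at 13.7, 16.8, 3.94 and 1.90 CPM in the same order. All FireΔ/Δ Oligo4 cells had 14.0, 12.1, 3.94 and 0.948. The 5 endothelial markers summed to 5.76 to 157 CPM in FireΔ/Δ and 1.73 to 5.57 in Fire+/+ Oligo4, the 157 coming from the cortex of mouse 3. In cells with no endothelial UMI, that library had Socs3 at 18.4 and Bcl3 at 9.90 CPM. The 11 microglia markers summed to 15.4 to 21.9 CPM over all FireΔ/Δ cells and 64.0 to 154 over Fire+/+ cells, and at most 6 of them were at 0 in a FireΔ/Δ library. The part of the haemoglobin, endothelial and microglia markers in these results was not tested.

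Within FireΔ/Δ mice, Oligo1 was set beside the other oligodendrocytes of the same library. The clusters were made from these expression values, so the contrast is a description with no test. Cebpd was at 132 and 97.7 CPM in Oligo1 of hippocampus and cortex of mouse 3 and at 98.5 and 78.7 in mouse 6, against 10.0 to 19.3 in the other cells. A Cebpd UMI was found in 47.5% to 53.1% of Oligo1 cells per library. Stat3 was at 160, 126, 173 and 133 in the same order, against 64.1 to 90.5. Both genes were higher in Oligo1 of every library.

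Socs3 and Bcl3 were rarely detected in the other FireΔ/Δ cells. Socs3 was at 76.5 and 65.4 CPM in Oligo1 of mouse 3 and at 37.3 and 26.2 in mouse 6, a mean of 51.4 against 3.48 in other cells. Bcl3 was at 37.0 and 26.9 in mouse 3 and at 17.1 and 8.99 in mouse 6, a mean of 22.5 against 1.49. For both, mouse 3 lay above mouse 6, in either tissue. Cebpb averaged 5.18 against 0.426, and Osmr 0.695 against 0.107. The upstream members differed less, with mean Oligo1 against other levels of 55.0 and 47.4 for Il6st, 68.3 and 56.9 for Jak1, 49.0 and 47.2 for Jak2 and 8.75 and 8.71 for Tyk2.

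Of the 10 members, 8 passed the 5% filter, taken here on the mean of the shares of Oligo1 and of other FireΔ/Δ cells. Socs3 and Bcl3 passed it only through Oligo1, since 2.95% and 1.32% of the other cells held a UMI of them, so their place above the other cells is no finding. With the filter on the other cells alone, 6 members passed, of which 2 (Cebpd and Stat3) had a mean log2 value that was higher in Oligo1 of all 4 libraries and 0 were lower in all 4. Among all 9276 genes past that filter, 18.9% were higher and 16.4% lower. Ordered by the mean log2 difference among the genes past the first filter, Cebpd (0.49 ± 0.071, SD over 2 mice) ranked 22 of 9321 and Stat3 (0.38 ± 0.035) ranked 37. Socs3 differed by 0.28 ± 0.13 and Bcl3 by 0.15 ± 0.082, with no rank given, since only Oligo1 carried them past that filter. Jak1 ranked 744, Il6st 1366, Jak2 3065 and Tyk2 5450. The 6 Fire+/+ Oligo1 cells held 3 UMIs of Cebpd and 9 of Stat3, and 0 of Socs3, Bcl3, Cebpb and Osmr.

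Oligo1 cells of FireΔ/Δ mice were next divided by whether a Cebpd UMI was found, to see whether the members were detected in the same cells. Socs3 was at 116 and 33.3 CPM in cells with and without it in the hippocampus of mouse 3, and at 110 and 24.5 in its cortex. In mouse 6 the pairs were 60.1 and 15.8 in hippocampus and 39.3 and 11.3 in cortex. Bcl3 was at 53.2 against 19.1, 35.5 against 18.8, 25.8 against 8.87 and 14.0 against 3.22 in the same order, and Stat3 at 173 against 145, 146 against 106, 191 against 155 and 139 against 125. All 3 were higher with a Cebpd UMI in every library, while Jak1 was higher in hippocampus and lower in cortex. The cells with a Cebpd UMI were deeper in 3 of 4 libraries, by medians of 10411 against 9541, 14279.5 against 13881 and 11394 against 10791 UMIs, and shallower in the cortex of mouse 6.

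FireΔ/Δ cells outside Oligo1 were divided in the same way by Serpina3n, an acute-phase protease inhibitor gene and known STAT3 target. Cebpd was at 36.3 against 14.1 CPM with and without a Serpina3n UMI in hippocampus of mouse 3 and at 27.3 against 7.49 in its cortex. In mouse 6 it was at 32.6 against 13.7 and at 34.7 against 10.8. The cells without a Serpina3n UMI still lay above all Fire+/+ libraries, which did not pass 5.34 outside Oligo1. Stat3 was at 112 against 65.3 and 86.4 against 60.8 in mouse 3, and at 125 against 80.3 and 115 against 71.7 in mouse 6. In mouse 3, Il6st showed no such order, at 40.1 against 38.3 and 36.7 against 40.1. The study names Serpina3n among the genes high in Oligo1, so this split can also order cells by likeness to Oligo1. That was not tested.

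**Figure D4:**
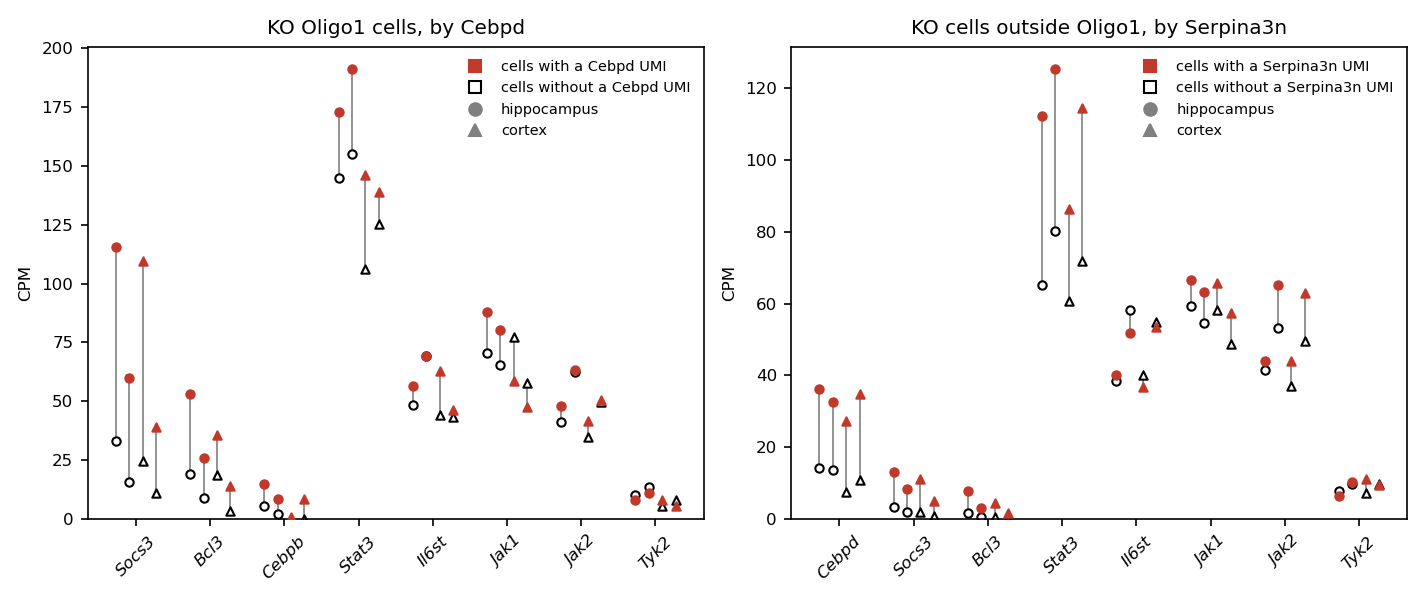
CPM of the members in FireΔ/Δ cells that do or do not hold a UMI of an index gene, by library: Oligo1 cells by Cebpd, and cells outside Oligo1 by Serpina3n. Socs3, Bcl3 and Stat3 are higher beside Cebpd in all 4 libraries, while Il6st outside Oligo1 is not ordered by Serpina3n.

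The rest of the pathway was read from lists of its other genes. For all genes past the filter, the shares higher and lower in Oligo1 of all 4 libraries were 19.6% and 15.8%. None of the 8 gp130 ligand genes in the matrix passed the filter in FireΔ/Δ cells. Below it lay Cntf, which encodes ciliary neurotrophic factor. Cntf was at 9.89 and 1.47 CPM in Oligo1 of hippocampus and cortex of mouse 3 and at 6.75 and 8.99 in mouse 6. Each lay above the other cells of its library, at 1.10 to 2.14, though the 1.47 rests on few UMIs. Il11 and Ctf1 had a lower mean log2 value in Oligo1 of all 4 libraries (mean 2.60 against 3.59 and 0.726 against 0.934 CPM). The remaining ligand genes were on neither side in all 4. Of the other receptors, Cntfr, the ciliary neurotrophic factor receptor, was higher in Oligo1 of all 4 libraries (mean 79.2 against 57.1 CPM), and Lifr was at 59.9 against 58.9. Stat2, which carries interferon signals, was higher in all 4 (29.1 against 21.4). Of 10 inhibitors, Socs4 and Ptpn2 were higher in all 4, and Pias4 and Ptpn11 lower, counts near those shares. Ptpn11, which encodes the phosphatase SHP2, was at 139 against 174.

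Of the further STAT3 response genes, 7 passed the filter on the other cells alone. Of these, 5 (Serpina3n, Pim3, Bcl6, Mcl1 and Gfap) were higher in Oligo1 of all 4 libraries and 1, Hif1a, was lower (67.5 against 71.3 CPM), against 18.9% and 16.4% of all genes. Serpina3n was at 591 against 43.0. Another 3 passed only through Oligo1 and are given as levels alone. Fos was at 63.1 against 6.04 and Junb, like Fos a subunit of AP-1, at 37.0 against 4.73. Vim, a filament gene, was at 14.6 against 4.45 CPM. Of 10 NF-κB and IκB genes, Nfkbia (47.8 against 33.8) and Nfkbib (21.4 against 18.4), both inhibitors, were higher in all 4, a share near that of all genes. Neither of the other C/EBP genes, Cebpg and Cebpz, was on 1 side in all 4. Of 5 immediate early genes, which respond to dissociation as well as to signals, Zfp36 (22.2 against 10.4) and Dusp1 (18.7 against 13.7) were higher in all 4. The 10 immediate early genes of the list summed to 274 to 403 CPM in Oligo1 and 248 to 265 in the other FireΔ/Δ cells, and their part in the result was not tested.

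Between genotypes, edgeR without the filter called 4 of 18 STAT3 response genes, all higher in FireΔ/Δ mice, and 0.491% of all genes. Serpina3n rose from 3.03 to 157 CPM, Fos from 0.741 to 19.9, Junb from 1.64 to 11.9 and Tnfrsf1a, a receptor for tumour necrosis factor, from 0.756 to 2.63. Outside Oligo1, Serpina3n (2.75 to 43.0) and Fos (0.743 to 6.04) rose. Fos and Junb, listed with the STAT3 response genes, are immediate early genes too, which respond to dissociation. The 10 listed immediate early genes, which hold neither, summed to 251 to 309 CPM over FireΔ/Δ and 239 to 253 over Fire+/+ cells, and their part in the Fos and Junb results was not tested. edgeR without the filter called 0 of these 10 and 0 of the ligand, other receptor, other JAK and STAT, inhibitor, other C/EBP and NF-κB genes over all cells.

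Hippocampus and cortex of each mouse were compared with mouse in the model, and tissue goes with batch within a mouse, so these cannot be told apart. limma called 0 of 9257 genes (0%) for tissue, with 1559 at an unadjusted p under 0.05. edgeR called 443 of the same 9257 genes for tissue, far more than the 8 it called between genotypes with that filter. Cebpd differed by 0.067 ± 0.019 (hippocampus minus cortex, log2 scale, SE; limma adjusted p = 0.242, edgeR adjusted p = 0.0162) and Stat3 by 0.057 ± 0.016 (limma adjusted p = 0.236, edgeR adjusted p = 0.0461). For the difference in the genotype effect between tissues, limma called 0 of 9257 genes (0%), with 574 at an unadjusted p under 0.05, and edgeR called 1. For Stat3 that difference was 0.12 ± 0.031 (limma adjusted p = 0.792). These fits took all oligodendrocytes, and the mix of clusters differed between tissues. In FireΔ/Δ mice 3 and 6, Oligo1 made up 30.9% and 23.2% of hippocampus cells and 13.7% and 10.8% of cortex cells. The part of that mix in the tissue and interaction results was not tested.

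Genes with a course like that of 3 members over libraries and clusters were found by Pearson's r over 28 profiles of at least 20 cells among 10995 genes. The profiles share libraries, depth and cluster labels, so r is a description. Closest to Cebpd were Serpina3n (0.95), Fos (0.95), C4b (0.93), Socs3 (0.90) and Fosl2 (0.89). Closest to Bcl3 were Socs3 (0.96), Plvap (0.95), Emp3 (0.93), Anxa2 (0.93) and Flnc (0.91). Socs3 was nearest to Junb (0.96), Bcl3 (0.96), Cela1 (0.93), Fos (0.93) and Plvap (0.93). Plvap is known from fenestrated endothelium. The endothelial markers summed to 7.49 to 59.1 CPM in FireΔ/Δ Oligo1 libraries. Oligo1 cells with no endothelial marker UMI had Bcl3 at 36.8 and 21.7 CPM in hippocampus and cortex of mouse 3 and at 18.1 and 10.0 in mouse 6. All Oligo1 cells had 37.0, 26.9, 17.1 and 8.99 in the same order. The part of endothelial RNA in these results was not tested.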

How the data were processed

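Single-cell RNA-seq libraries (10x Genomics 3′ chemistry) were made by the authors from sorted brain cells and processed with Cell Ranger 5.0.0 on mm10 (GRCm38). The deposited matrix holds log2 values, in which UMIs were divided by a size factor of the cell and 1 was added, for mature oligodendrocytes with at least 5000 UMIs. Per cell the authors deposited total UMI counts, the percent of mitochondrial UMIs (at most 10), the scran size factor (a score), the batch and the cluster. UMI counts were recovered from log2 values and size factors, and 100% of 42420937 values above 0 were whole within 0.001. In 1317 of 12581 cells the recovered total differed from the deposited one. The authors' sort gate was set against debris, erythrocytes and doublets, and no doublet calling was added. The columns of other series' samples numbered 0.

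Libraries held 12015360 to 27847948 UMIs. The labels name 2 mice per genotype, fewer than a figure legend of the study counts for these clusters. Errors and p-values here take the mice of the labels as n, and the mismatch is not settled. Values were averaged over the 2 libraries of a mouse, and 2 mice per genotype were compared with limma 3.58.1 (R 4.3.3) on genes in at least 5% of cells. Alternatives were edgeR 4.0.16 and DESeq2 1.42.0 on UMI sums, edgeR also on every gene with at least 10 UMIs (chosen after seeing the data), other filters and pseudocounts (0.1 and 1), each tissue alone, a block for mouse, and each mouse left out. The splits by Serpina3n, Hbb-bs and endothelial UMIs and the filter on the other cells alone were also chosen after seeing the data. The scripts were tested on simulated data. The members and lists were chosen with earlier results of these data known. Named were all members, list genes past the threshold between genotypes, per list the highest, lowest and up to 5 further genes of 1 sign in all 4 libraries for Oligo1, the 5 genes nearest to Cebpd, Bcl3 and Socs3, and Csf1r. The 2 libraries of a mouse deviated together (correlation 0.807 in Fire+/+ and 0.850 in FireΔ/Δ), as did mice of the same age (0.742). Some genes of the lists are not reported here.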

Additional observations from a re-analysis of the deposited data

Results flagged for a closer look

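In Oligo3, Il6st differed between genotypes in opposite directions in the tissues on the log2 scale. FireΔ/Δ minus Fire+/+ was -0.025 in hippocampus and 0.023 in cortex, with the same sign in both batches of a tissue. Jak1 did the same, at -0.0075 in hippocampus and 0.0054 in cortex. In CPM neither held. The ratio of FireΔ/Δ to Fire+/+ within batches was 0.907 and 0.985 in hippocampus and 0.978 and 1.08 in cortex for Il6st, and 0.965 and 1.005 in hippocampus and 0.996 and 0.988 in cortex for Jak1. The difference between tissues was not tested in Oligo3 alone.

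Of 110 groups of 4 libraries, 4 held a library far from the other 3 by Dixon's test, which flags about 1 in 20 groups by chance. These were Bcl3 in Oligo2 of the Fire+/+ cortex of mouse 4 (0.407 CPM), Socs3 in Oligo3 of the same library (0.334), Socs3 in Oligo4 of the Fire+/+ hippocampus of mouse 4 (1.67) and Osmr in Oligo4 of the FireΔ/Δ cortex of mouse 3 (2.69). Each rests on few UMIs.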

How the results depend on the processing

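The number of genes called between genotypes depended on the test. Over all cells it was 0 by limma with the filter, 1 without it, 2 with a pseudocount of 0.1, 8 and 78 by edgeR with and without the filter, 69 by edgeR in hippocampus and 49 by DESeq2. Outside Oligo1 these were 0, 1, 2, 3, 29, 12 and 15. edgeR with the filter, without it and without it in hippocampus called 4, 16 and 8 genes in Oligo2, 3, 13 and 9 in Oligo3 (1 by limma without the filter) and 25, 36 and 13 in Oligo4. With the libraries of a mouse as a replicate block, limma called 1 gene over all cells and 3 outside Oligo1, none of them a member. edgeR called 443 genes for tissue and 1 for the interaction.

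Leaving out each mouse in turn, limma called 0 genes. edgeR without the filter called 296, 309, 267 and 252 over all cells without mice 1, 4, 3 and 6, and in that order 167, 170, 51 and 40 outside Oligo1, 56, 90, 82 and 75 in Oligo2, 106, 126, 122 and 80 in Oligo3 and 80, 66, 65 and 82 in Oligo4, in fits whose lone mouse is assumed to vary like the other group. Stat3 over all cells had an edgeR adjusted p of 0.00217 to 0.165 there, and was not called without Fire+/+ mouse 1. Genes higher in Oligo1 of every library numbered 1831, 1749 with the filter on the other cells alone, 3154 without mouse 3 and 3370 without mouse 6.

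Signs changed for differences near 0 alone (log2 scale), and the cause was not tested. Without 1 mouse, the lowest and highest differences were over all cells -0.00100 to 0.058 for Jak1, -0.030 to 0.074 for Il6st and -0.046 to 0.055 for Jak2, outside Oligo1 -0.0096 to 0.038 for Jak1, -0.041 to 0.065 for Il6st and -0.050 to 0.052 for Jak2, in Oligo2 -0.0034 to 0.081 for Jak1, -0.034 to 0.10 for Il6st and -0.068 to 0.092 for Jak2, in Oligo3 -0.021 to 0.019 for Jak1, -0.054 to 0.052 for Il6st and -0.066 to 0.046 for Jak2, in Oligo4 -0.0099 to 0.0075 for Tyk2, for tissue -0.016 to 0.015 for Il6st and -0.0027 to 0.040 for Jak2, and for the interaction -0.019 to 0.044 for Il6st and -0.047 to 0.039 for Jak2. Jak2 outside Oligo1 was -0.0088 by edgeR without the filter, -0.0019 and -0.00088 with pseudocounts of 0.1 and 1 and -0.0043 in hippocampus. By edgeR, Tyk2 in Oligo4 was 0.14 with and 0.14 without the filter, the tissue differences of Tyk2 and Il6st were 0.031 and 0.015, and the Jak2 interaction was 0.052. The Fire+/+ levels of Cebpb, Osmr, Bcl3 and Socs3 rest on 4 to 17 UMIs each.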
